A study of Caenorhabditis elegans with 3 samples.

Results

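The genes for the proteins of the large ribosomal subunit were examined for binding of tagged RCAT-1 in Caenorhabditis elegans larvae. They were taken as the protein-coding genes of the WBcel235 annotation whose symbol starts with rpl- or rla-, which gave 50 of 19985 protein-coding genes. Binding had been mapped by chromatin immunoprecipitation followed by sequencing (ChIP-seq), which recovers the DNA fragments attached to a protein. The protein is the product of R02D3.7, now named rcat-1, carrying a C-terminal GFP-FLAG tag per a note on replicate 3. All 3 samples were biological replicates of 1 group: whole L4 larvae of mixed sex, of unknown age, from the strain OP218, which carries unc-119(ed3) III and the transgene insertion wgIs218. The labels do not give the promoter or the cell types in which the tagged protein was made. Whole animals were used, so a peak cannot be assigned to a tissue. Replicates 1 and 2 came from the stock centre CGC, and replicate 3 came from a laboratory and was fragmented by sonication. With a single condition there was nothing to contrast. The input control was not analysed here.

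The large subunit joins amino acids at its catalytic centre, lets the new chain out through an exit tunnel and recruits translation factors with a flexible stalk. Most of its proteins are needed in equal amounts, and their genes are among the most strongly transcribed in a growing larva. Many worm transcripts receive a spliced leader, so an annotated start can mark the acceptor of that leader rather than the place where transcription began. A distance from an annotated start is therefore a distance to the annotation and no more.

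A gene was called bound in a list of peaks when a peak's summit, its highest point, lay from 1000 bp upstream to 200 bp downstream of one of its transcript starts. There were 5 deposited lists on ce11: 1 for each replicate, 1 pooled from the 3 alignments and 1 thresholded list, whose 390 peaks were the 390 strongest of the pooled list. Of these, 364 were nuclear. A peak's signal is the strength given to it by the authors' caller, and its rank, with 1 for the strongest, was taken within its own list. Signals were not compared across lists.

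The DNA under the summits is shown for 6 bound genes and 1 gene below the threshold, because the same short words recur under the summits of different genes. Each run holds the 75 bases on either side of the summit, read 5′ to 3′ on the strand of the gene from the RefSeq genome sequence of WBcel235, which is ce11. The thresholded summits were chosen to show each of the 3 words, alone or together, and a bound gene with none of them. They lie at chrIV:4749990-4750140 (rpl-20, minus strand), chrIII:5706361-5706511 (rpl-23, minus), chrIV:13881876-13882026 (rpl-29, plus), chrV:12728374-12728524 (rpl-28, minus), chrV:7776254-7776404 (rpl-39, minus) and chrIII:7854619-7854769 (rpl-35, plus). The pooled summit of rpl-33, which has no thresholded peak, lies at chrII:7105142-7105292 on the plus strand. Capitals mark CGTAAATC, GCGAGACC and CTGAGTAT on either strand, which appear as GATTTACG, GGTCTCGC and ATACTCAG when the word is on the other strand.
rpl-20: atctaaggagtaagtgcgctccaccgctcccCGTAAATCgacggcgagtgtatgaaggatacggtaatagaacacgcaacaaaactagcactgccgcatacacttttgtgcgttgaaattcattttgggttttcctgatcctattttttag
rpl-23: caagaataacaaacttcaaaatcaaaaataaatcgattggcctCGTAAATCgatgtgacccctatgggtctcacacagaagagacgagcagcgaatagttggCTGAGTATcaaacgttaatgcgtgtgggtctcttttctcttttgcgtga
rpl-29: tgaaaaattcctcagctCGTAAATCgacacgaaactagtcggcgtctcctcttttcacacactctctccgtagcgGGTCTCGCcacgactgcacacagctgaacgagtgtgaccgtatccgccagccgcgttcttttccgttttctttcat
rpl-28: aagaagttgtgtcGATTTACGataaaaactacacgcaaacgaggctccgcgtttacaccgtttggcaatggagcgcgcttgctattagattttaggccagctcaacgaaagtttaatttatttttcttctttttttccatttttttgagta
rpl-39: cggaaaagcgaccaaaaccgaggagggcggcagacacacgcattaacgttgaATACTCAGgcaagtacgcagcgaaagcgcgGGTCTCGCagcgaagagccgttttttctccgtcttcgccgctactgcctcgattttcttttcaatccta
rpl-35: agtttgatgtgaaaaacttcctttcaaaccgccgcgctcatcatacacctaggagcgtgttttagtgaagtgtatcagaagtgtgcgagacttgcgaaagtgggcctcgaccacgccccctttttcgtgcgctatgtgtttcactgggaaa
rpl-33: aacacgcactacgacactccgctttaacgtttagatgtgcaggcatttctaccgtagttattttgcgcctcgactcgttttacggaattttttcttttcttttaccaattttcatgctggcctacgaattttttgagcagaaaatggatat

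In the thresholded list, 15 of the 50 large subunit genes were bound (30%, exact 95% interval 17.9% to 44.6%), where 2.05% of all protein-coding genes were. The same 15 were bound in all 5 lists, a state reached by 2.02% of protein-coding genes. The thresholded peaks are part of the pooled list and were derived from the same replicates, so this count adds little. Of the 409 protein-coding genes bound in the thresholded list, 404 were bound in all 5. The 15 members were rpl-20, rpl-15, rpl-23, rpl-17, rpl-29, rpl-4, rpl-13, rpl-28, rpl-2, rpl-35, rpl-3, rpl-34, rla-0, rpl-39 and rpl-9, in the order of their peaks. In the pooled list 44 were bound (88%), against 21.6% of protein-coding genes. That list holds 11533 entries and is labelled as peaks and background, the input from which the thresholded list was derived. A gene called bound in it may thus hold only background. The single replicates gave 47, 39 and 47 bound genes in replicates 1, 2 and 3, where 39.3%, 37.4% and 40.8% of protein-coding genes were bound. In all 3 replicates at once 38 were bound, against 14.9% of protein-coding genes. Replicate 2 lacked a summit at 8 genes that had one in both other replicates, and without it the count was 46.

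The replicate lists are long, and most of their peaks are weak, so the counts were also taken over the 390 strongest peaks of each replicate. These held 15, 17 and 16 large subunit genes in replicates 1, 2 and 3, beside 2.02%, 1.85% and 1.96% of protein-coding genes. Of the 50, 13 were bound in the 390 strongest peaks of every replicate, against 1.3% of protein-coding genes. With the 1950 strongest peaks of every replicate the number was 21, against 2.1%. These replicate lists do not depend on the threshold, although the pooled and thresholded lists were made from the same reads.

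**Figure D1:**
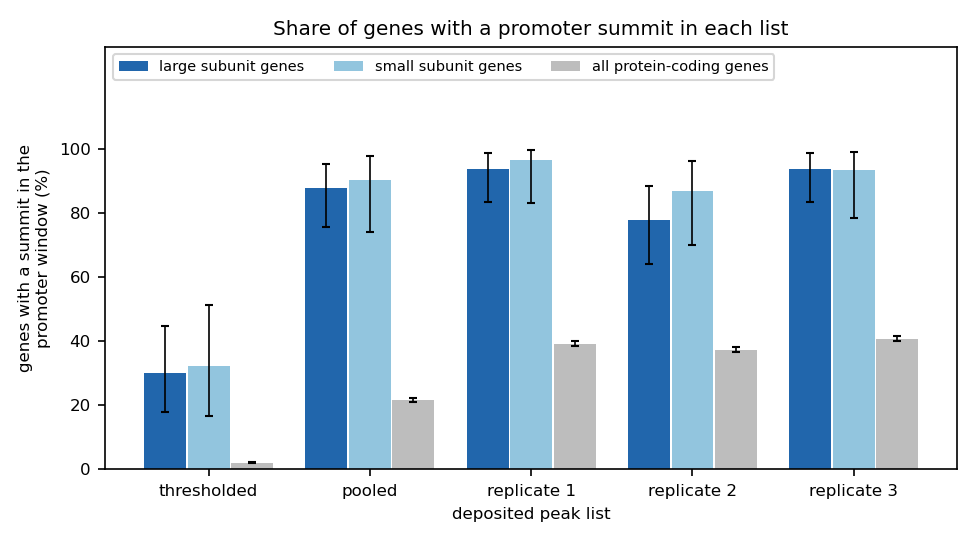
Share of genes (%) with a summit in the promoter window in each of the 5 deposited lists, for 50 large subunit genes, 31 small subunit genes and all 19985 protein-coding genes; error bars are exact 95% binomial intervals over genes. The large subunit share runs from 30% in the thresholded list to 94% in replicates 1 and 3, and the bars of all protein-coding genes lie lower in every list.

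The genes of the small subunit, with symbols starting with rps-, are set beside them. In the thresholded list 10 of 31 were bound (32.3%, exact 95% interval 16.7% to 51.4%), and in the pooled list 28 were. In all 3 replicates at once 24 of 31 were bound, and 4 of 31 were bound in the 390 strongest peaks of every replicate. The difference between the subunits was not tested.

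Around the catalytic centre, 2 of 3 genes were bound. The product of rpl-3 lies close to the site of peptide bond formation in the yeast ribosome, and its thresholded peak ranked 119 with a signal of 104. It stood at ranks 115, 210 and 97 in replicates 1, 2 and 3. The gene rpl-2, for another protein at that site, had a peak of signal 116 and rank 103. The nearest replicate summits ranked 76, 347 and 131, so replicate 2 gave it the lowest place, and the strongest summit of replicate 2 in the window was another one, at rank 149. The gene rpl-10, for a protein that joins the subunit late in yeast, had no thresholded summit and no summit in replicate 2, and its pooled summit ranked 2123.

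Of the 9 genes for proteins of the exit tunnel and its rim, 4 were bound. The protein of rpl-17 lines the narrow part of the tunnel, and its peak had a signal of 222 and rank 36, with ranks of 25, 50 and 62 in replicates 1, 2 and 3. The protein of rpl-4 reaches into the same stretch of the tunnel. Its peak had a signal of 192 and rank 50, with 59, 45 and 45 in the replicates. The peak of rpl-35, whose product sits at the tunnel's mouth, ranked 116 with a signal of 106, and stood at 148, 78 and 129 in the replicates. The small protein of rpl-39 also lines the tunnel. Its peak was weaker, with a signal of 58.4 and rank 209, and its replicate ranks spread over 516, 156 and 260. The other 5 genes, rpl-19, rpl-25.1, rpl-25.2, rpl-26 and rpl-31, had no thresholded summit.

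Of the 5 genes for proteins at the interface with the small subunit, rpl-23 alone was bound, and its peak was among the strongest. The thresholded signal was 383 at rank 13, and the replicates placed it at 12, 13 and 14, with signals of 167, 93.1 and 123. The gene rpl-24.1, for a protein that bridges the subunits in yeast, lay just below the threshold. Its pooled summit ranked 402 with a signal of 35.04, and its replicate ranks were 465, 485 and 177. The summits of rpl-30 and rpl-41.2 were weaker, at pooled ranks of 7689 and 1733, and rpl-41.1 had none in the pooled list.

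The stalk is made of rla-0, the P0 protein that anchors it, and the acidic proteins of rla-1 and rla-2, with rpl-12 at its base. Of these 4 genes, rla-0 was bound, with a signal of 84.3 at rank 153 and replicate ranks of 118, 139 and 258. The gene rla-1 had a pooled summit at rank 1440, 5 bp upstream of its start (offset -5 bp), and replicate ranks of 1247, 2372 and 283. The pooled summit of rpl-12 was also at its start, with an offset of -14 bp, a rank of 813 and replicate ranks of 527, 253 and 570. For rla-2 there was no pooled summit and none in replicate 2, and the ranks in replicates 1 and 3 were 8895 and 9913. None of the 3 genes for the particle that carries the 5S RNA was bound in the thresholded list: rpl-5, rpl-11.1 and rpl-11.2 had pooled ranks of 2645, 678 and 711.

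The remaining 26 genes held 7 bound ones, the strongest member among them. The gene rpl-20 had the second strongest peak of the thresholded list, at chrIV:4749728-4750377 in ce11, with a signal of 808. Its replicate signals were 310, 154 and 337, at ranks 3, 4 and 1. All 3 replicates and the pooled list put its summit on the same base. The peak of rpl-15 followed, at rank 11 with a signal of 388 and replicate ranks of 13, 16 and 10. Both genes were thus near the top of every replicate.

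The peak of rpl-29 ranked 39 with a signal of 213, and its replicate ranks were 30, 87 and 30. A second thresholded summit lay in the same window at rank 363 and an offset of -73 bp. It made rpl-29 the only member with more than 1 thresholded peak, so that the 15 genes held 16 peaks. The peak of rpl-13 ranked 54 with a signal of 184, and the replicates gave 63, 37 and 95. That of rpl-28 ranked 80 with a signal of 136, and the replicates gave 102, 62 and 77. These peaks lay within the 100 strongest of most replicates, rpl-28 in replicate 1 being the exception. The peak of rpl-34 ranked 126 with a signal of 97.7 and stood at 128, 79 and 151 in the replicates.

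The weakest bound gene was rpl-9, with a signal of 40.8 at rank 323. Its replicate ranks were 1102, 145 and 1302, so replicate 2 alone placed it within the 390 strongest. Together with rpl-39, it was one of the 2 bound genes not found in the 390 strongest peaks of every replicate. Over the 15 genes the median thresholded signal was 136, compared with 58.5 over the 364 nuclear peaks and 68.3 over the 10 bound small subunit genes.

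**Figure D2:**
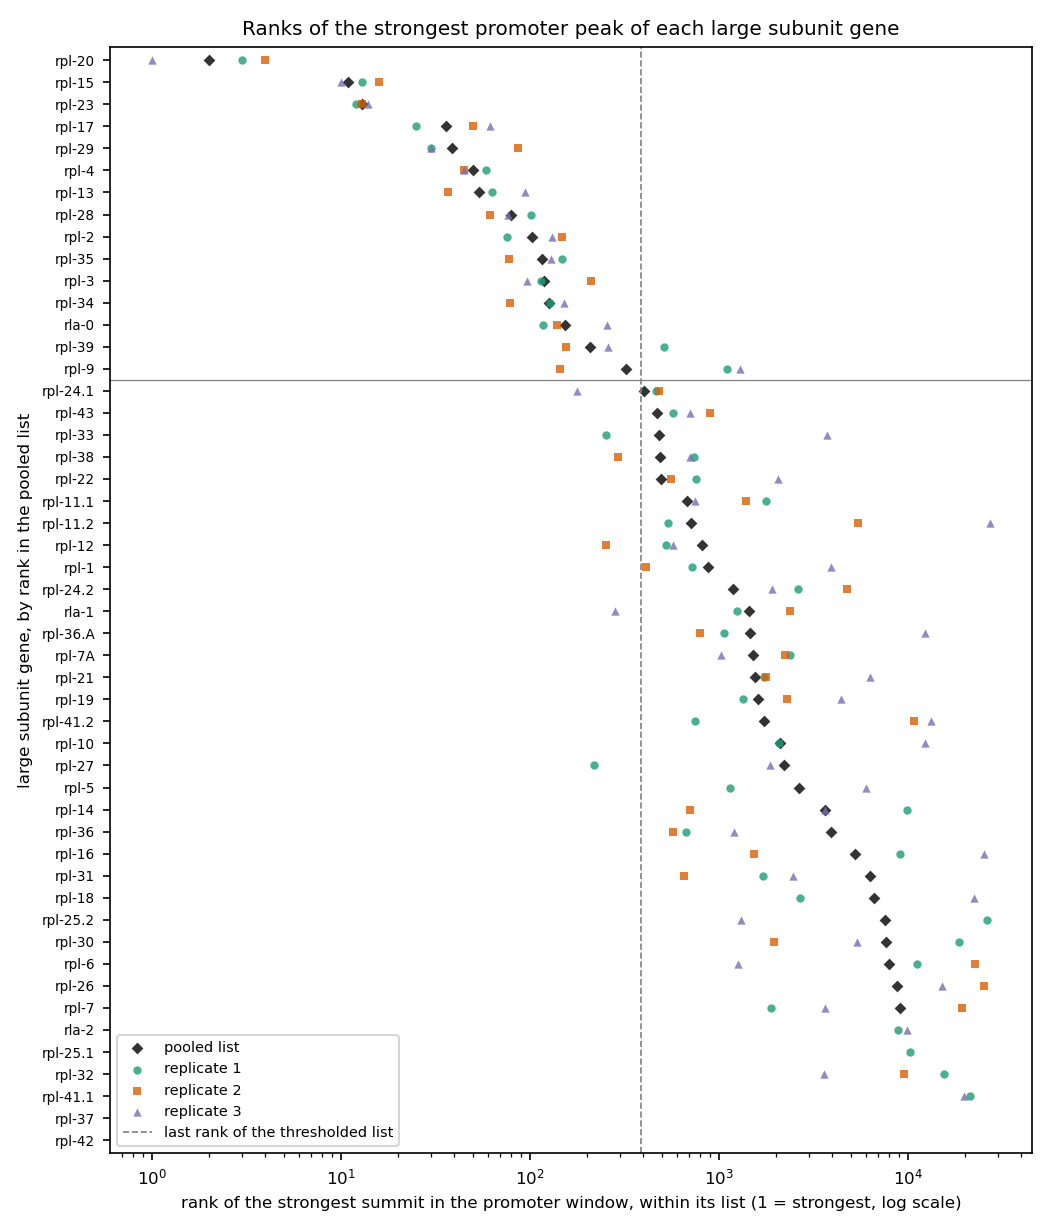
Rank of the strongest summit in the promoter window of each of the 50 large subunit genes, on a log axis where 1 is the strongest peak of a list, for the pooled list and replicates 1, 2 and 3; genes are ordered by pooled rank, the horizontal line separates the bound from the other genes and the dashed line marks rank 390. The replicates lie close together for rpl-20, rpl-15 and rpl-23 and spread widely below the threshold, as for rpl-11.2 at 537, 5474 and 27282.

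Of the 35 genes with no thresholded summit, 29 had a summit in the pooled list, with ranks from 402 to 9097 and a median of 1622. The 3878 other protein-coding genes with a pooled but no thresholded summit had a median rank of 4771.5. Just below rpl-24.1 came rpl-43 at rank 473, rpl-33 at 484, rpl-38 at 487 and rpl-22 at 494. Their pooled signals were 32.2, 31.8, 31.7 and 31.5, below the 40.8 of rpl-9. Among these 5 genes the replicates differed most at rpl-33, which ranked 253 in replicate 1, had no summit in replicate 2 and ranked 3746 in replicate 3.

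Among the 35, 22 had a summit in the pooled list and in all 3 replicates, and 7 in the pooled list and 2 replicates. The gene rpl-32 had one in all 3 replicates, at ranks 15618, 9582 and 3613, but none in the pooled list. The genes rla-2 and rpl-41.1 had summits in replicates 1 and 3 alone, and rpl-25.1 in replicate 1 alone. No summit lay in the window of rpl-37 or rpl-42 in any of the 5 lists. The nearest thresholded summit to an unbound gene lay 706 bp downstream of the start of rpl-27, outside the window, and the next nearest lay 5825 bp from rpl-31 (offset -5825 bp).

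None of the 8 genes in numbered pairs was bound in the thresholded list, where a pair shares the number before the dot. The pair rpl-24.1 and rpl-24.2 had pooled ranks of 402 and 1188, and the second resembles a yeast factor of subunit assembly. The pair rpl-11.1 and rpl-11.2 had ranks of 678 and 711, at offsets of 77 bp and -416 bp. The starts of rpl-41.1 and rpl-41.2 are 1102 bp apart, so parts of their windows cover the same DNA. In rpl-25.1 and rpl-25.2 the pooled list held a summit at the second only, at rank 7604.

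The bound genes were spread unevenly over the chromosomes, in counts too small to compare. There were 4 of 17 on chromosome I, none of 9 on II, 4 of 9 on III, 4 of 8 on IV, 3 of 5 on V and none of 2 on X. A divergent gene lay upstream of 10 of the 15 bound and 23 of the 35 other genes. The gap to the upstream gene had a median of 590 bp in the bound and 575 bp in the other genes, and the gene length a median of 727 bp and 754 bp. An upstream gene lay within 250 bp in none of the bound and in 6 of the other genes. A snoRNA gene lay inside 3 of 15 and 5 of 35. No test was made on these traits.

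All 15 summits lay upstream of the annotated start. So did those of 10 of 10 bound small subunit genes and 366 of 394 other bound protein-coding genes (92.9%), in a window that reaches mostly upstream. Over the 15 members, the offset to the nearest start of the gene ran from -440 bp at rpl-35 to -250 bp at rpl-39, with a median of -291 bp. A band from 250 to 450 bp upstream, drawn round these 15 offsets after they were seen, held 6 of 10 bound small subunit genes and 80 of 394 other bound protein-coding genes (20.3%), which include the small subunit genes. A wider band from 200 to 500 bp upstream held 8 of 10 and 144 of 394 (36.5%). All 15 lie in both bands, the narrower one by its construction. The median of those 394 was -222 bp. In each replicate the summit nearest to the thresholded one was then taken, a choice that partly fixes the agreement. The median offset of these summits over the 15 genes was -311, -304 and -298 bp in replicates 1, 2 and 3. The mean was -304 ± 6.51 bp (SD, n = 3). Below the threshold the pooled summits were more scattered, and 8 of 29 lay in the narrower band, while 9 of 29 lay within 100 bp upstream of the start or downstream of it.

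Distances between replicate and thresholded summits were measured with the same nearest summits, so they are small in part by that choice. The largest distance of a replicate summit from the thresholded one had a median of 35 bp over the 15 genes, and it was at most 50 bp at 13 of them. For the other 394 genes the median was 39 bp, and 61.4% were within 50 bp. The exceptions were rpl-34, at 99 bp in replicate 2, and rpl-9, at 109 bp in replicate 2.

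**Figure D3:**
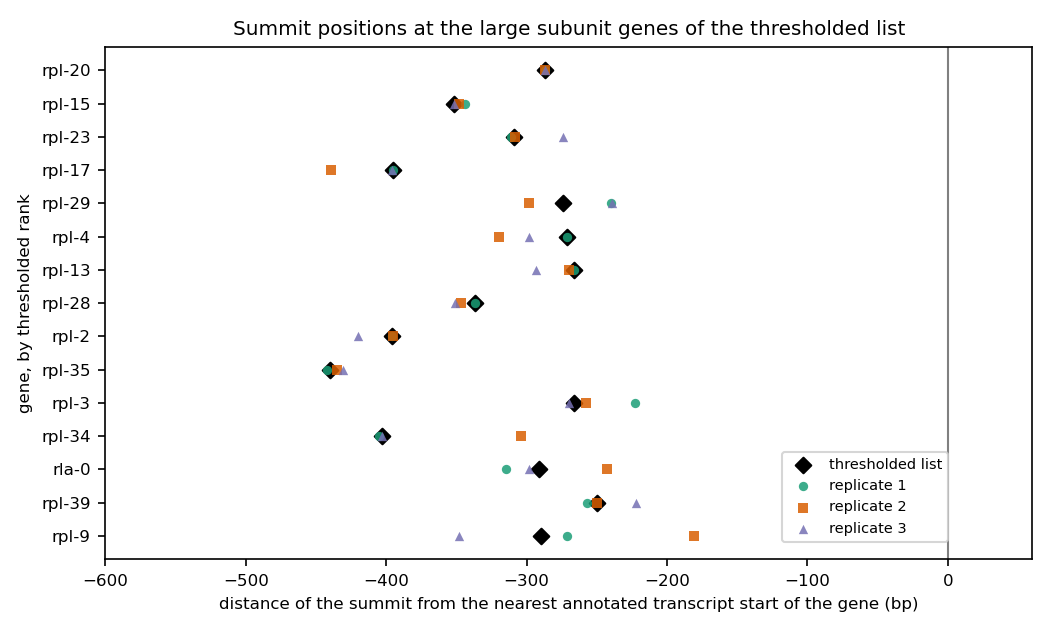
Distance (bp) from the nearest annotated transcript start to the thresholded summit and to the nearest summit of replicates 1, 2 and 3, for the 15 large subunit genes of the thresholded list in order of rank; negative values are upstream. The thresholded summits lie between -440 and -250 bp, and the replicate points of rpl-20 coincide at -287 bp while those of rpl-9 range from -348 to -181 bp.

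Most of these peaks were shared with a neighbour. At 11 of the 15 genes the same summit lay in the window of another protein-coding gene, and at rpl-13, rpl-35, rpl-3 and rla-0 it lay in no other window. Sharing was not counted over the other bound genes, so it is not shown to be particular to these members. When each summit was given only to the protein-coding gene with the nearest start, 7 of the 15 members remained bound. Over all protein-coding genes, 277 of the 409 bound ones remained, which is 1.39% of all. These 7 were rla-0, rpl-3, rpl-13, rpl-15, rpl-23, rpl-29 and rpl-35. The peak of rpl-20 was then assigned to Y17G9B.5, a divergent gene whose start lay 175 bp away (offset -175 bp) where that of rpl-20 had an offset of -287 bp. Peaks alone do not tell which of the neighbours a bound protein acts on.

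The divergent neighbours were aps-3 at rpl-17, B0041.8 at rpl-4, mrpl-49 at rpl-28, calf-1 at rpl-2, ppm-1.H at rpl-34, K11H12.8 at rpl-15 and lpd-7 at rpl-9. Of these, mrpl-49 encodes a protein of the mitochondrial ribosome, and lpd-7 is the worm relative of the yeast ribosome assembly factor Nop7. Genes on the same strand, swp-1 at rpl-23 and thoc-7 at rpl-29, had the shared summit farther from their own starts, at offsets of -911 and -783 bp. The peaks of rpl-15, rpl-4 and rpl-2 also lay in the windows of snoRNA genes, and those of rpl-17, rpl-2, rpl-39 and rpl-9 in those of other noncoding RNA genes. At rpl-39 the neighbour was rps-30, a small subunit gene, and the summit had offsets of -250 and -249 bp from the 2 starts. The gene C26F1.3 held the same summit at an offset of -971 bp.

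The words marked in the sequences were counted on both strands. The 8 bases CGTAAATC contain the 6-base CGTAAA, a word already known from earlier results of these peaks, so its frequency under summits is a description. Within 50 bp of the summit, CGTAAA lay at 6 of the 15 genes, beside 175 of all 364 nuclear thresholded peaks (48.1%). Within 100 bp it lay at 11 of 15, beside 57.4% of all, and within 25 bp at 2 of 15, beside 27.2%. The longer CGTAAATC lay within 100 bp at 10 of 15 genes and 161 of 340 other nuclear peaks (47.4%). Within 50 bp it lay at 6 of 15 and 140 of 340, and within 25 bp at 2 of 15 and 77 of 340. Its share at the members was thus above that at the other peaks only within 100 bp. These 340 leave out the strongest peak of each bound rpl-, rla- and rps- gene. They still hold the second peak of rpl-29 and the peak of ubq-2, a ubiquitin fusion gene described below.

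In the windows searched, no large subunit gene below the threshold held the longer word. From 500 bp upstream to 100 bp downstream of the outermost start, it was present at 10 of the 15 bound genes and at none of the 35 others. In that window 4 of 31 small subunit genes and 657 of all 19985 promoters (3.29%) held it. In the whole window of 1000 bp upstream to 200 bp downstream the counts were again 10 of 15 and 0 of 35. There 6 of 31 small subunit genes and 5.59% of all promoters held it. Of the 657 promoters with the word, 202 (30.7%) had a thresholded summit in the window. Closer to the start, from 250 bp upstream to 50 bp downstream, neither the 15 nor the 35 held CGTAAATC. There 1 of 31 small subunit genes and 1.74% of all promoters held it. At the 10 bound genes the centre of the word lay -462.5 to -270.5 bp from the outermost start, beyond this smaller window. These are counts of letters in a word chosen from these same peaks and were not tested.

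The shorter CGTAAA was more common. In the larger promoter it lay at 12 of the 15 bound and 14 of the 35 other genes, beside 23.3% of all promoters. From 250 bp upstream to 50 bp downstream it lay at 4 of 15 and 5 of 35, beside 13.0%. That smaller window reaches no farther upstream than the nearest of the 15 summits. The bound genes with CGTAAATC were rpl-20, rpl-15, rpl-23, rpl-17, rpl-29, rpl-13, rpl-28, rpl-2, rpl-34 and rla-0, with ranks from 2 to 153 and a median signal of 199. Those without it were rpl-4, rpl-35, rpl-3, rpl-39 and rpl-9, with ranks from 50 to 323 and a median signal of 104. Over all nuclear peaks except the strongest ones of the 15 genes, the median signal was 88.7 for 165 with the word within 100 bp. It was 46.4 for 184 without the word.

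The word lay on the side of the summit away from the gene at 9 of the 10. At rpl-20, rpl-23, rpl-17, rpl-29 and rpl-13 it read as written on the strand of the gene, with its centre -54.5 to -28.5 bp from the summit. At rpl-15, rpl-28, rpl-34, rpl-2 and rla-0 it read on the other strand. Its centre lay -57.5, -58.5 and -59.5 bp from the summit at rpl-15, rpl-28 and rpl-34, and -12.5 bp at rpl-2. At rla-0 it lay on the near side, 20.5 bp from the summit.

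The other 2 words were chosen after the member summits had been seen, from the 7 words of 8 bases found within 50 bp of at least 5 of the 15 summits. The 7 include CGTAAATC, and 4 that are not described further: CGATTTAC, TAAATCGA and AAATCGAC, which overlap the bases of CGTAAATC and those after it, and CGAGACCC, which overlaps GCGAGACC. Which word stood for each overlapping group was a choice made by hand. GCGAGACC lay there at 6 genes, rpl-17, rpl-29, rpl-4, rpl-13, rpl-2 and rpl-39. It also lay at 35 of the 340 other nuclear peaks (10.3%) and 1 of the 9 further peaks of small subunit genes. The larger promoter held it at 6 of 15 bound, 9 of 35 other and 8 of 31 small subunit genes, beside 2.55% of all promoters. Of the 510 promoters with the word, 73 (14.3%) had a thresholded summit in the window, beside 2.05% of all protein-coding genes. At the large subunit genes its share was above the share over all promoters whether or not the gene was bound.

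CTGAGTAT lay within 50 bp of 5 of the 15 summits, those of rpl-23, rpl-4, rpl-13, rpl-39 and rpl-9. It lay at 1 of the 340 other nuclear peaks (0.294%), which was that of ints-4, a gene for a subunit of the Integrator complex. It also lay at 2 of the 9 further small subunit peaks, those of rps-0 and rps-20. In the larger promoter it was present at 5 of 15 bound, 3 of 35 other and 5 of 31 small subunit genes. It was present at 187 of all promoters (0.936%), of which 17 (9.09%) had a thresholded summit in the window. Followed after 2 bases by AACGTT, as in the run of rpl-23 above and on the other strand in that of rpl-39, it was found at 15 of all 19985 promoters. These promoters overlap where genes are divergent, so the 15 hold 10 distinct places in the genome, 8 of them in the promoter of a ribosomal protein gene. The 8 belong to rpl-13, rpl-23, rpl-32, rpl-7A with set-21, rpl-39 with rps-30, rps-0 with rbg-3, rps-20 with ekl-4 and rps-22 with polh-1. The genes rpl-7A and rpl-32 had no thresholded summit. The other places lie at his-72 and ints-4. Both words, AACGTT and the gap of 2 bases were picked on the member summits, and the counts at summits and in promoters include those members, so they are descriptions and support nothing.

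**Figure D4:**
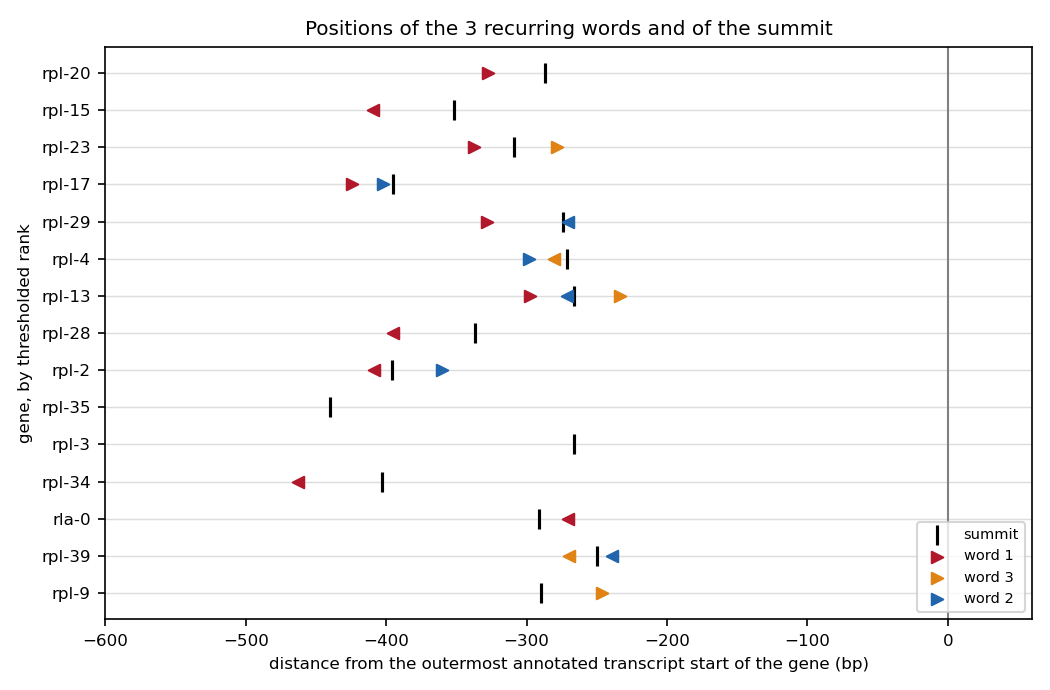
Position (bp from the outermost annotated transcript start) of the thresholded summit (bar) and of the centre of word 1 (CGTAAATC, red), word 2 (GCGAGACC, blue) and word 3 (CTGAGTAT, orange) at the 15 bound large subunit genes, in order of rank; triangles to the right read as written on the strand of the gene and those to the left read on the other strand. Word 1 lies upstream of the summit at 9 of the 10 genes that hold it, and rpl-35 and rpl-3 hold none of the 3 words.

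Other genes of ribosome production and use are listed for context. Of the ubiquitin fusion genes, ubq-2 encodes ubiquitin joined to a large subunit protein under another symbol. Its peak had a signal of 358 at rank 15, with replicate ranks of 22, 10 and 13 and an offset of -472 bp. The gene ubl-1, whose product is a small subunit protein joined to a ubiquitin-like one, had no thresholded summit and a pooled rank of 1242. The small subunit genes with the strongest peaks were rps-12, rps-24, rps-0 and rps-21, with signals of 423, 296, 223 and 170.

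Among 42 genes found of 49 listed for ribosome assembly and ribosomal RNA synthesis, 4 were bound in the thresholded list, and 21 were in the pooled list. These were rbd-1, pro-1 and nol-6, with signals of 149, 140 and 119, and lpd-7, whose peak is that of rpl-9. Among 15 genes found of 20 listed for elongation and ribosome-associated factors, 4 were bound. The strongest was iff-2, a worm eIF5A gene, with a signal of 65.5. It was followed by eef-1A.1 for an elongation factor, icd-1 for a subunit of the nascent chain complex and larp-1, with 38.8, 38.4 and 36.2. Of 12 genes found of 13 listed for RNA polymerase III and the 5S RNA, none was bound and 1 had a pooled summit. These shares are to be read beside the 2.05% of all protein-coding genes in the thresholded list and the 21.6% in the pooled list.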

How the data were processed

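Per the deposited description files, the authors called peaks on each replicate against 1 control alignment and on the 3 alignments together (the pooled list), and derived the thresholded list by the irreproducible discovery rate. For the aligner, the caller, its settings and the cutoff, no name or value was given in the sources used here. The signal of a peak is the authors' deposited value. These lists hold no read counts, so depth is unknown and a signal has no counting error here. The pooled and thresholded lists share their reads with the replicates, and false peaks from the shared control could recur in all of them.

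The ce11 lists were read with Python 3.11.15. Starts came from Ensembl release 115 and bases from the RefSeq genome sequence of WBcel235. Exact 95% intervals are Clopper-Pearson (scipy 1.17.1), cover counting error over genes and treat genes as independent, although neighbours share peaks. No test was run. Words were counted on both strands. Alternatives were other windows, overlap in place of summits, the nearest start only, the strongest peaks only, each replicate left out and other word windows. The procedures were tested on simulated peaks.

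The members, lists and words were chosen with earlier results of these data known. Named are all bound members, unbound members with the best pooled ranks, numbered pairs, stalk genes, genes sharing a member's summit, the 4 strongest of each other list and the ubiquitin fusion genes; other genes were chosen after their values were seen. No protein sequences were used here.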

Additional observations from a re-analysis of the deposited data

How the results depend on the processing

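Of 58 alternatives, 46 left a count or median within its limits, 12 moved it and 0 reversed it. A count cannot change sign, so a reversal was possible only for the median distance, and the 0 says nothing on the counts. The thresholded count of 15 became 7 with the nearest start only and 4 without members that share a summit with another protein-coding gene, the latter chosen after seeing the data. Taking only as many strongest peaks as the thresholded list gave 15, 17 and 16 in replicates 1, 2 and 3. With the nearest start only, the pooled count fell from 44 to 32, and replicates 1, 2 and 3 fell from 47, 39 and 47 to 33, 32 and 31. With 5 times as many strongest peaks, replicates 1, 2 and 3 gave 34, 28 and 27. Among these counts, only those of replicate 3 passed the limit. Leaving out each replicate in turn gave 38 to 46 members bound in all remaining replicates, a count that could not fall below 38. It gave 15 in all remaining lists, which was fixed in advance because all 15 thresholded members were bound in every list. These alternatives are among the 46 and say nothing on robustness. Members with CGTAAA near the summit numbered 2 within 25 bp and 11 within 100 bp, against 6 within 50 bp, and those with CTGAGTAT 2 within 25 bp against 5, an alternative added after seeing the data. In the promoter, CGTAAA lay at 9 members from 250 bp upstream to 50 bp downstream and at 26 from 500 to 100 bp. The longer CGTAAATC lay at 0 in the smaller one, which ends short of its sites at the bound genes. No paired analysis was possible because there is 1 group. Without counts, the depth of each replicate cannot be set beside its lower or higher count.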
